A study of Homo sapiens with 12 samples.

Results

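Among 26535 features measured in each library, 10 genes of 1 signalling and actin assembly route were taken by symbol and followed across all groups: the p21-activated kinases PAK1, PAK2, PAK3, PAK4 and PAK6, the WASP-interacting proteins WIPF1, WIPF2 and WIPF3, and the nucleation promoters WAS and WASL. All 10 were found by symbol, and all 10 passed the filter on low counts. The filter asks for about 10 counts in at least 3 libraries of any kind. PAK6 and WIPF3 met it only through H1299 libraries and WAS only through A549 libraries, so a test of these 3 between the lines would be decided by the filter, and they are described by their counts. The genes were chosen by measured values, namely their levels in the 4 groups and the effect of VGF on their counts in each line. That effect is therefore described here, and where the number of these genes past a threshold is given beside the share of all features, nothing is read from it. The difference between the lines is given with adjusted p-values over all features. It is built from the same levels, those of the empty vector libraries included. In the libraries with VGF it also contains the VGF effects on which the genes were chosen. Its values are not independent of the choice in either set of libraries, and the adjusted p-values of these genes are no independent evidence.

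The cells were A549, an established line from a human lung adenocarcinoma, and NCI-H1299, an established line from a human non-small-cell lung carcinoma (H1299 below). Each line carried either a lentivirus for overexpression of VGF, which encodes a secreted neuroendocrine precursor, or the empty vector, and each of the 4 groups held 3 libraries that the submitters call biologically independent. The labels give the genotype as WT for the empty vector cells and VGF-OE for the others, and every group, the controls included, had been through lentiviral delivery. A549 was grown in DMEM/F12 and H1299 in RPMI-1640, so line and medium cannot be told apart. Whether the VGF cells were a pool or a single clone is not given in the sources used here. A free-text note gives the empty vector for all samples, and the groups were taken from the titles.

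Library totals ran from 31378171 to 41919484 counts. VGF itself was at 2.43 ± 0.373 CPM (counts scaled to the library total; mean ± SD, n = 3 libraries here and below) in A549 with empty vector and 1283 ± 80.3 with VGF, and at 85.6 ± 7.26 and 980 ± 119 in H1299. A549 library 2 with VGF stood apart. Its 18 endothelial marker genes summed to 593.7 CPM, against 92.9 and 98.1 in the other A549 libraries with VGF, 80.9 to 93.1 in A549 with empty vector and 30.3 to 34.9 in H1299. Of those markers, TEK, EMCN, ERG and PLVAP had 0 counts in A549 with empty vector, and none of the 18 had 0 counts in all 3 A549 libraries with VGF. Values without this library are given beside the results it touches. Epithelial markers summed to 6731 to 8829 CPM in A549 and 1015 to 1168 CPM in H1299, where CDH1 had 0 counts in all libraries.

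PAK kinases are serine/threonine kinases that bind the active, GTP-loaded form of Cdc42 and Rac and phosphorylate regulators of the cytoskeleton such as LIM kinase. PAK1, PAK2 and PAK3 form group I, which is held inactive by its own amino-terminal part until a GTPase binds, and PAK4, PAK5 and PAK6 form group II. WAS (WASP) and WASL (N-WASP) also bind Cdc42 and then switch on the Arp2/3 complex, which starts branched actin filaments. WIP proteins bind the WASP proteins, hold them in check and protect them from degradation. WAS is known from blood cells, WASL from most tissues. In lung cancer cells these genes are studied for their part in migration and invasion.

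The shared feature of the kinases and of both WASP proteins is the Cdc42/Rac interactive binding (CRIB) motif, through which they bind the GTPase. A search of the translated coding sequences found it in 7 of the 10 genes, and in none of the WIP genes, which bind the WASP proteins and not the GTPase. The 42 coding bases of the motif are printed to show how far these genes, whose levels are set side by side below, differ in sequence. Sequences are from GENCODE release 29 transcripts on GRCh38, 5′ to 3′ on the coding strand, and capitals mark the 11 bases that are identical in all 7. The search asked for isoleucine followed by serine or glycine, then for proline, phenylalanine and histidines at fixed places. It thereby fixed most of the capital bases, so their identity is no result. The motif identities given below include these bases.

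PAK1 (chr11:77379921-77379962, minus strand): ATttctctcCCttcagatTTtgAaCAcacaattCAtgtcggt
PAK2 (chr3:196801959-196802000, plus strand): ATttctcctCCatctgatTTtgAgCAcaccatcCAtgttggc
PAK3 (chrX:111142128-111142169, plus strand): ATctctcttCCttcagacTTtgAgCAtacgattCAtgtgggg
PAK4 (chr19:39169584-39169625, plus strand): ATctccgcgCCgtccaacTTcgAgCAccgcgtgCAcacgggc
PAK6 (chr15:40264819-40264860, plus strand): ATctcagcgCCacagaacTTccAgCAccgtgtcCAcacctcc
WAS (chrX:48686933-48688072, plus strand, interrupted by an intron): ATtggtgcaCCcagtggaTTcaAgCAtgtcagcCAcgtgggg
WASL (chr7:123695847-123696601, minus strand, interrupted by an intron): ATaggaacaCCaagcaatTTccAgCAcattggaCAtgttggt

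The group I kinases were closest to each other, with 34 of the 42 motif bases identical between PAK1 and PAK3, 33 between PAK1 and PAK2 and 32 between PAK2 and PAK3. PAK4 and PAK6 shared 31, WAS and WASL 25, and PAK1 and PAK4, from different groups, 21. Over the whole coding sequence the identity was 76.4% for PAK1 with PAK3, 75.5% for PAK1 with PAK2, 72.6% for PAK4 with PAK6, 66.0% for WIPF1 with WIPF2 and 64.6% for WAS with WASL. None of the 8 pairs compared shared a run of 50 identical coding bases. Overlap with neighbouring genes is a separate matter: 39.46% of the exonic bases of PAK6 are also exonic in the readthrough gene BUB1B-PAK6 on the same strand, and 14.83% of those of PAK1 lie opposite AP003680.1. Whether the authors' counting used strand is not given in the sources used here, so the values of PAK6, and to a smaller extent of PAK1, carry that uncertainty.

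Levels were first compared between genes per unit of length, in FPKM, fragments scaled to transcript length and library size. PAK4, the most widely expressed group II kinase, was the highest PAK gene in each of the 4 groups, with 38.9 ± 0.929 FPKM in A549 with empty vector and 80.0 ± 1.54 in H1299 with empty vector. PAK2, the ubiquitous group I kinase, followed with 15.3 ± 0.305 and 47.0 ± 1.44 FPKM, and PAK1 with 12.9 ± 0.759 and 22.3 ± 1.07. The ranges of PAK4, PAK2 and PAK1 did not overlap within either group. PAK3, known chiefly as a neuronal kinase, was at 1.17 ± 0.136 FPKM in H1299 with empty vector and 0.033 in A549 with empty vector, and PAK6 was below 0.15 FPKM in each of the 12 libraries.

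Summed over the 5 genes, PAK transcripts reached 67.2 ± 0.318 FPKM in A549 with empty vector and 150.5 ± 3.39 in H1299 with empty vector. The make-up of that sum also differed between the lines. PAK4 made up 57.9% of it in A549 and 53.1% in H1299, PAK1 19.2% and 14.8%, and PAK2 22.8% and 31.2%. With VGF the sums were 66.8 ± 2.89 FPKM in A549 and 147.2 ± 4.52 in H1299, and the PAK4 shares were 56.8% and 54.4%. For PAK1, PAK2 and PAK4 the fold between the lines was larger in FPKM than in the scaled counts used below.

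**Figure D1:**
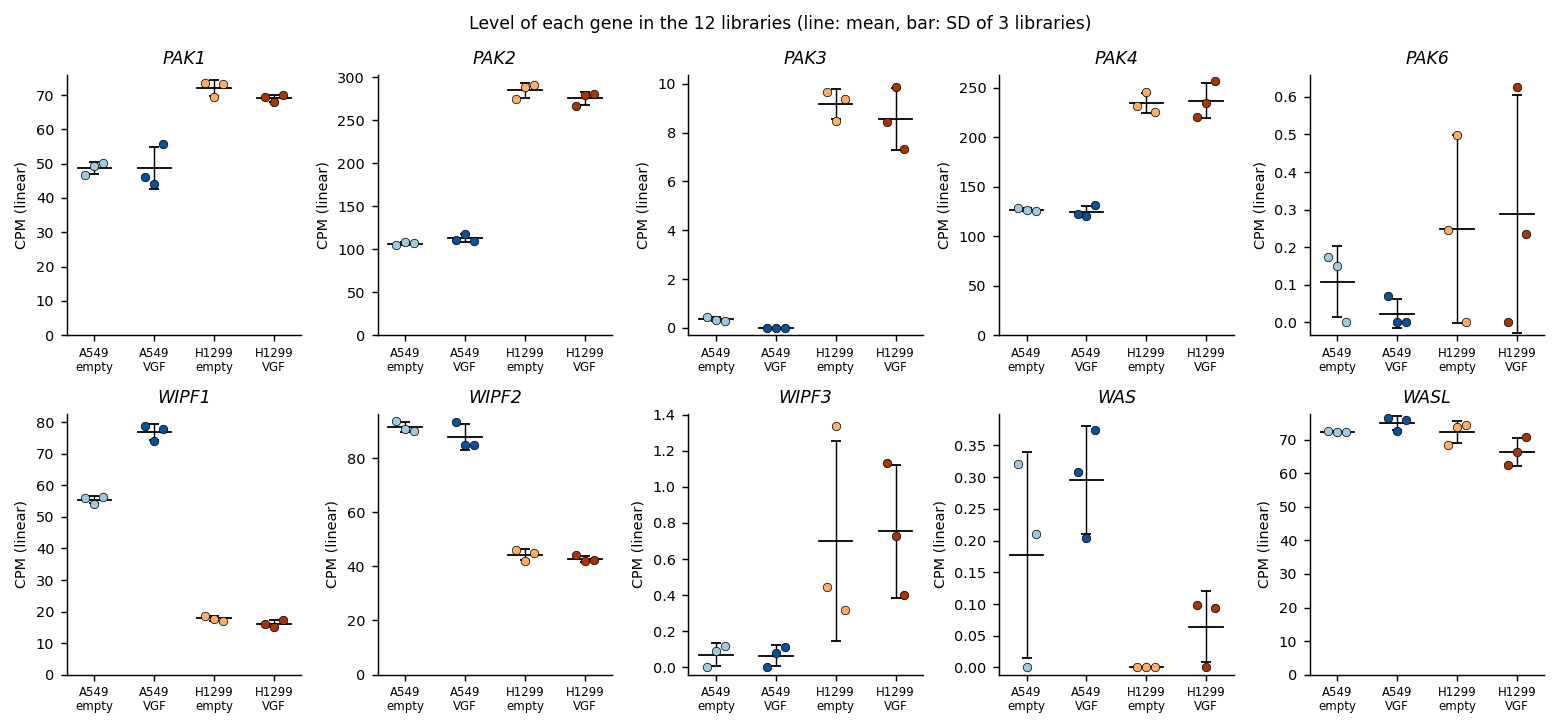
Level of each of the 10 genes in CPM (linear axis, scale differing between panels) in the 12 libraries, by line and vector; points are libraries, lines are means and bars are SDs of 3 libraries. WIPF1 in the 3 A549 libraries with VGF (74.2 to 79.0 CPM) sits above the 3 with empty vector (54.2 to 56.3), and PAK3 is at 0 in the 3 A549 libraries with VGF.

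PAK2 (ENSG00000180370, chr3:196739857-196832647, plus strand) had the widest gap between the lines among the kinases above 10 CPM. It stood at 104, 108 and 107 CPM in A549 with empty vector and at 274, 289 and 291 CPM in H1299 with empty vector. The groups did not overlap, as was so for 81.0% of all features, and PAK2 was 2.67-fold higher in H1299 (log2 fold change 1.42, SE 0.0446, adjusted p = 9.42e-12 by edgeR's quasi-likelihood test). With VGF the same contrast, made in the other 6 libraries, gave 1.29 (adjusted p = 2.24e-11).

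PAK4 (ENSG00000130669, chr19:39125770-39182816, plus strand) was at 128, 127 and 125 CPM in A549 with empty vector and at 232, 245 and 226 CPM in H1299 with empty vector. Every H1299 library was above every A549 library, a 1.85-fold difference (log2 fold change 0.89, SE 0.0577, adjusted p = 1.23e-08), and with VGF the log2 difference was 0.93 (adjusted p = 7.81e-09). PAK1 (ENSG00000149269, chr11:77321707-77474635, minus strand), a group I kinase that acts at membrane ruffles, was at 46.7, 49.3 and 50.2 CPM in A549 and 73.5, 69.4 and 73.3 CPM in H1299 with empty vector. This smaller gap, 1.48-fold, also separated all libraries of the lines (log2 fold change 0.56, SE 0.0744, adjusted p = 1.31e-05), and was 0.50 with VGF (adjusted p = 3.96e-05).

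PAK3 (ENSG00000077264, chrX:110944285-111227361, plus strand) separated the lines most. Its counts were 16, 11 and 10 in A549 with empty vector and 433, 373 and 385 in H1299 with empty vector. In CPM this was 0.365 ± 0.0883 against 9.16 ± 0.621, a 24.8-fold difference (log2 fold change 4.64, SE 0.25, adjusted p = 1.55e-08). With VGF, H1299 had 1048 counts in all and A549 had 0. This was at least 293-fold against a floor of 3 counts over the A549 libraries, with the H1299 counts taken as observed. That gap contains the VGF effects on which the genes were chosen. In bulk RNA, fewer cells with a transcript and less transcript per cell cannot be told apart. The 10 neuron markers summed to 325.1 to 355.9 CPM in A549 and 286.4 to 322.6 CPM in H1299 with empty vector, but single markers differed: RBFOX3 was at 65.5 and 0.0302 CPM, NEFL at 51.9 and 0.232 CPM and TUBB3 at 175.5 and 265.8 CPM, with ELAVL4 at 0 counts in both. Their part in the PAK3 counts was not tested.

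PAK6 (ENSG00000137843, chr15:40238759-40277487, plus strand), a kinase known for binding the androgen receptor, was near the limit of detection. It had 6, 5 and 0 counts in A549 with empty vector and 11, 22 and 0 in H1299 with empty vector. The overlapping BUB1B-PAK6 had 3, 0 and 2, and 4, 0 and 20 counts there. With VGF, PAK6 had 2, 0 and 0 counts in A549 and 0, 25 and 10 in H1299. Libraries without PAK6 counts and with them occurred in each group. PAK6 met the filter only through H1299 libraries, so nothing about the lines is read from its counts. PAK5, the remaining group II kinase, did not pass the filter and had 0 to 23 counts per library.

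WIPF1 and WIPF2 ran the other way between the lines, and WIPF3 is described by its counts. WIPF1 (ENSG00000115935, chr2:174559572-174682916, minus strand), which encodes WIP itself, stood at 56.0, 54.2 and 56.3 CPM in A549 with empty vector and at 18.7, 17.8 and 16.9 CPM in H1299 with empty vector. It was 3.11-fold lower in H1299 (log2 fold change -1.64, SE 0.061, adjusted p = 4.62e-11) and 4.78-fold lower with VGF (log2 fold change -2.26, adjusted p = 2.76e-12). The wider gap with VGF contains the VGF effects on which the genes were chosen, and nothing is read from the widening. WIPF2 (ENSG00000171475, chr17:40219304-40284136, plus strand), known as WIRE or WICH, was at 93.9, 90.8 and 90.3 CPM in A549 and 46.0, 41.98 and 45.0 CPM in H1299 with empty vector. It was 2.07-fold lower in H1299 (log2 fold change -1.05, SE 0.0537, adjusted p = 1.10e-09), and -1.04 on the log2 scale with VGF (adjusted p = 1.23e-09).

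WIPF3 (ENSG00000122574, chr7:29806486-29917066, plus strand), known as CR16 from brain and testis, was low throughout. Its counts were 0, 3 and 4 in A549 with empty vector and 20, 59 and 13 in H1299 with empty vector. H1299 library 2 held most of these H1299 counts. WIPF3 met the filter only through H1299 libraries, so nothing about the lines is read from its counts. With VGF, A549 had 0, 3 and 4 counts and H1299 had 46, 29 and 17. The 3 WIP genes summed to 23.6 ± 0.0934 FPKM in A549 with empty vector and 11.2 ± 0.154 in H1299 with empty vector, so the WIP sum was lower in the line where the PAK sum was higher.

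WASL (ENSG00000106299, chr7:123681935-123749067, minus strand) was nearly level between the lines with empty vector. It was at 72.6, 72.4 and 72.4 CPM in A549 and 68.6, 73.9 and 74.5 CPM in H1299, a log2 difference of -0.003 (SE 0.0538, adjusted p = 0.966). The sign depended on the scaling, with 0.104 under upper-quartile scaling and 0.186 in FPKM (limma, adjusted p = 0.004675), settings that moved the median of all features by 0.106 and 0.192. With VGF the log2 difference was -0.172 (SE 0.0539, adjusted p = 0.0106), which became -0.05 under upper-quartile scaling (adjusted p = 0.403) and 0.03 in FPKM (adjusted p = 0.591), and -0.127 without H1299 library 1 with VGF (adjusted p = 0.0544). No other gene of the 10 changed sign between the lines under any setting run.

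WAS (ENSG00000015285, chrX:48676596-48691427, plus strand) was close to absent. It had 11, 0 and 7 counts in A549 with empty vector and 0, 0 and 0 in H1299 with empty vector. An A549 library thus also held 0 counts. WAS met the filter only through A549 libraries, so no fold between the lines is given. With VGF, A549 had 9, 8 and 13 counts and H1299 had 4, 0 and 4. The 14 leukocyte markers summed to 18.2 to 20.9 CPM in A549 with empty vector and 0.78 to 1.25 CPM in H1299 with empty vector, but CD14 alone was at 19.0 ± 1.07 CPM in those A549 libraries, and each of the other 13 had a mean below 0.5 CPM in both lines with empty vector. CD3D, CD3E, CD2, MS4A1, FCER1G and SPI1 had 0 counts in A549 with empty vector. In H1299 with empty vector CD3D, MS4A1, TYROBP, FCER1G and CD53 had 0 counts. PTPRC had 0 counts in A549 with VGF. The part of blood cell transcripts in the WAS counts was not tested. WASL made up at least 98.9% of the summed WASP FPKM in each of the 12 libraries.

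Of the 7 genes that met the filter in the libraries of each line (PAK1, PAK2, PAK3, PAK4, WIPF1, WIPF2 and WASL), 6 passed the threshold of an adjusted p under 0.05 between the lines with empty vector, 4 higher and 2 lower in H1299, and 77.2% of all 18228 features did (38.5% higher and 38.6% lower). With VGF it was 7 of 7, WASL included with the dependence on scaling given above, beside 77.3% of all features. PAK3 met the filter in A549 only through the 3 libraries with empty vector. It had 0 counts in the A549 libraries with VGF, so its call there rests on H1299 counts alone. Both contrasts use levels on which the genes were chosen, and the contrast with VGF also contains the VGF effects. Nothing is read from either count. A difference between the lines was common to most features measured.

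VGF overexpression in A549 went with more WIPF1 and with the loss of the few PAK3 counts, while the main PAK kinases, WIPF2 and WASL stayed within small differences. WIPF1 was at 56.0, 54.2 and 56.3 CPM with empty vector and at 79.0, 74.2 and 77.9 CPM with VGF. The groups did not overlap, as was so for 18.4% of all features. The means were 55.5 ± 1.10 and 77.0 ± 2.48 CPM, a 1.39-fold difference (log2 fold change 0.474, SE 0.0581), and 12.6 ± 0.195 and 18.0 ± 0.899 FPKM. Library 2 with VGF, which held the endothelial transcripts, had the lowest WIPF1 level of the 3, and the log2 fold change without it was 0.499. Of the leukocyte markers, CD14 was at 19.0 ± 1.07 and 17.7 ± 1.89 CPM without and with VGF, and LAPTM5 had 126 counts in library 2 with VGF against 10 and 10 in the other libraries with VGF and 6 to 17 with empty vector.

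PAK3 had 16, 11 and 10 counts in the A549 libraries with empty vector and 0, 0 and 0 with VGF. Against a floor of 3 counts over the 3 libraries with VGF (0.0291 CPM), the level was at least 12.6-fold lower. The floor covers counting error of the 0 counts only, and the counts with empty vector were taken as observed. The counts are few: 37 in all, or 0.033 FPKM. As a frame, 472 features had at least 10 counts in each A549 library with empty vector and at most 60 in all, ranges set after the PAK3 counts were seen, and 3 of them (0.636%), PAK3, RLBP1 and PKHD1, had 0 counts in the 3 libraries with VGF. In the reverse direction it was 0 of 410 features. By the same ranges in H1299, 0 of 433 features fell to 0 with VGF, and 2 of 411 (0.487%) did in the reverse direction. The frame holds PAK3 itself and is no test of it.

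The other kinases moved little in A549. PAK2 was at 111, 118 and 109 CPM with VGF against 104, 108 and 107 with empty vector, a log2 fold change of 0.079 (SE 0.0443). Its groups did not overlap, as was so for 18.4% of all features, but the highest value was that of library 2, without which the change was 0.044. PAK1 was at 46.2, 44.2 and 55.9 CPM with VGF (log2 fold change 0.001, SE 0.0752, and -0.108 to 0.069 with 1 library left out) and PAK4 at 123, 121 and 131 CPM (log2 fold change -0.023, SE 0.0578). Both kept overlapping groups. WIPF2 was at 93.4, 85.1 and 84.9 CPM with VGF (log2 fold change -0.062, SE 0.0528), and WASL at 76.5, 72.5 and 75.8 CPM (log2 fold change 0.048, SE 0.054), again with overlap. WIPF3, WAS and PAK6 had at most 13 counts in any A549 library, too few to show a change of this size.

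Because WIPF1 was higher with VGF and WIPF2 was not, the make-up of the WIP family differed. The WIP sum was 23.6 ± 0.0934 FPKM with empty vector and 28.6 ± 1.40 with VGF. The ratio of WIPF1 to WIPF2, taken within each library and so free of library scaling, was 1.09, 1.18 and 1.16 with empty vector and 1.62, 1.70 and 1.79 with VGF. WIPF1 went from 53.3% to 62.9% of the WIP sum. The ratio of WASL to WIPF1, a WASP protein to its partner, was 1.15 ± 0.0203 and 0.821 ± 0.0267, so that WIPF1 transcripts exceeded WASL transcripts per unit of length with VGF only.

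**Figure D2:**
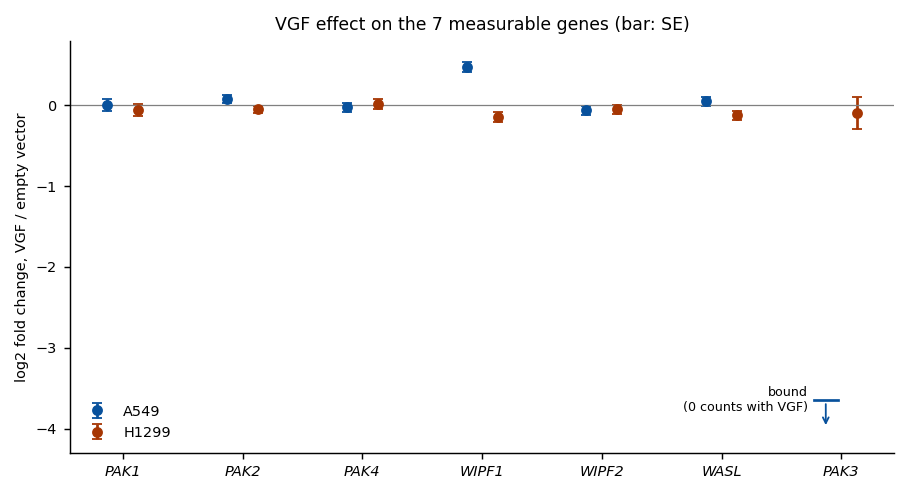
Log2 fold change of VGF against empty vector in each line for the 7 genes with at least 1 CPM in a group (vertical axis, log2; bars are SEs), with PAK3 in A549 drawn as a bound because all 3 libraries with VGF had 0 counts. WIPF1 in A549 (0.474) and the PAK3 bound in A549 stand away from 0, and the other values lie between -0.145 and 0.079.

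**Figure D3:**
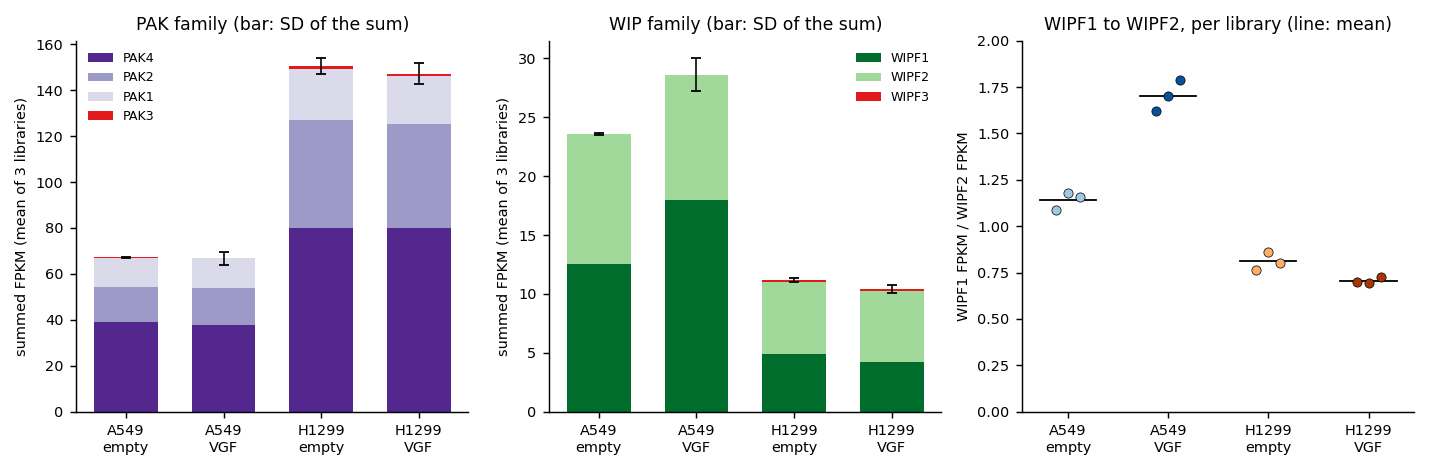
Summed FPKM of the PAK genes and of the WIP genes by group (stacked means of 3 libraries, bars are SDs of the sum; PAK6 is too low to draw) and the ratio of WIPF1 to WIPF2 FPKM in each library (points; lines are means). The PAK sum is about level within a line, and the WIPF1 to WIPF2 ratio in A549 goes from 1.14 with empty vector to 1.70 with VGF.

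In A549, 2 of the 10 genes were past an adjusted p of 0.05 in this contrast, WIPF1 as higher and PAK3 as lower, and 0.79% of all features were (0.406% higher and 0.384% lower). The genes were chosen on this contrast, so the count is no evidence for them and nothing is read from it.

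In H1299 the same genes were nearly level, and WIPF1 pointed the other way. WIPF1 was at 18.7, 17.8 and 16.9 CPM with empty vector and at 16.1, 15.1 and 17.2 CPM with VGF, a log2 fold change of -0.145 (SE 0.0621). The CPM ranges overlapped, whereas the FPKM ranges, 4.89 to 4.98 and 4.04 to 4.37, did not. How many of all features were without overlap in FPKM was not counted, so nothing is read from this. WASL was at 68.6, 73.9 and 74.5 CPM with empty vector and 62.4, 66.2 and 70.7 CPM with VGF (log2 fold change -0.122, SE 0.0537), with overlap. PAK3 kept its level, with 433, 373 and 385 counts with empty vector and 343, 394 and 311 with VGF (log2 fold change -0.098, SE 0.198).

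PAK2 in H1299 was at 267, 279 and 280 CPM with VGF (log2 fold change -0.048, SE 0.0434), PAK1 at 69.5, 67.9 and 69.9 CPM (-0.061, SE 0.0734) and PAK4 at 221, 234 and 256 CPM (0.018, SE 0.0569). WIPF2 was at 44.1, 41.98 and 42.3 CPM (-0.051, SE 0.0539). All of these overlapped the libraries with empty vector, and in CPM 0 of the 10 genes had groups without overlap, beside 12.7% of all features. By edgeR, 0 of the 10 genes were past the threshold in H1299, beside 0.011% of all features, with 3 of 10 (WIPF1, WASL and WAS) at an unadjusted p under 0.05 beside 7.8% of all features and 0 of 10 by DESeq2. These counts too come from a contrast on which the genes were chosen, and nothing is read from them. The WIPF1 to WIPF2 ratio was 0.81 ± 0.0464 with empty vector and 0.707 ± 0.0168 with VGF, below 1 in all 6 H1299 libraries, and WASL exceeded WIPF1 3.35-fold and 3.57-fold per unit of length.

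The effect of VGF on WIPF1 was lower in H1299 than in A549 by 0.619 on the log2 scale (SE 0.085). For PAK3 the sign of the difference was the opposite, since H1299 kept its counts and A549 lost them. Of the 10 genes, 2 were past the threshold for this difference, beside 0.159% of all features, and 0 were with the replicate number as a block. Nothing is read from these counts, because the genes were chosen on both VGF contrasts.

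Genes upstream and downstream in the same route were counted from 6 lists that hold none of the 10 genes: 92 genes, of which 88 passed the filter. In A549 with VGF, 1 of the 88 rose and 0 fell by edgeR, beside 0.79% of all features, with 15 at an unadjusted p under 0.05 (13.9% of all features). Without A549 library 2 with VGF, in a fit that tested 89 of the genes, 0 were called, with 14 at an unadjusted p under 0.05 (10.4% of all features). The median log2 fold change was 0.0305, against 0.0 over all features. The gene that rose was CDC42EP3, a Cdc42 effector that binds septins and carries a CRIB motif. It was at 74.0, 68.9 and 62.5 CPM with empty vector and at 81.2, 85.1 and 91.4 CPM with VGF (log2 fold change 0.328, SE 0.0652, adjusted p = 0.0423). Its groups did not overlap, as was so for 18.4% of all features. Its call held in 6 of 21 other settings and was lost in 10 of the 12 fits without 1 library, with an adjusted p of 0.0904 without A549 library 2 with VGF and up to 0.126 without A549 library 2 with empty vector. In H1299 it was at 73.3 and 73.8 CPM.

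RAC2 and RHOJ, GTPases of blood and endothelial cells, had 644 and 369 counts in A549 library 2 with VGF against 4 to 22 and 0 to 3 in the other A549 libraries with VGF, and up to 10 and 2 with empty vector. RHOJ also had 109 to 178 counts in each H1299 library, where RAC2 had 0 to 8. RAC2 and RHOJ were not called in A549. Library 2 is the one in which the endothelial markers were high, and without it their unadjusted p was 0.346 and 0.382, against 0.0103 and 0.00324 with it. HCLS1 and ABI3, actin regulators of blood cells, did not pass the filter and had 329 and 148 counts in the same library. PAK regulators (11 tested), LIM kinase, cofilin and other PAK substrates (18), WASP partners (15), other nucleation promoters (17) and the Arp2/3 complex (10) gave 0 calls each by edgeR, with 0, 5, 1, 1 and 4 genes at an unadjusted p under 0.05. DESeq2 called 8 of the 88, beside 710 features in all, in a fit that did not use the filter on low counts. Nothing is read from that count.

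The Arp2/3 subunit ARPC2 had the smallest p of its list, with 200.3 ± 5.62 CPM with empty vector and 227.8 ± 6.02 with VGF (log2 fold change 0.186, adjusted p = 0.0611). STMN1, a microtubule-destabilising protein that PAK1 phosphorylates, was at 117.0 ± 5.23 and 144 ± 15.7 CPM (adjusted p = 0.0664). NCKAP1, a subunit of the WAVE complex, was at 357 ± 11.8 and 399.5 ± 9.22 CPM (adjusted p = 0.122). Among the WASP partners FNBP1L, which recruits WASL to curved membranes, was at 54.2 ± 2.60 and 60.9 ± 1.93 CPM (adjusted p = 0.21), and among the PAK regulators PDPK1, which phosphorylates PAK1, was at 70.02 ± 1.07 and 74.9 ± 4.22 CPM (adjusted p = 0.423). None of these passed the threshold.

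In H1299 0 of the 88 genes passed by edgeR, with 6 at an unadjusted p under 0.05 (7.8% of all features). DESeq2 called 1 of them, beside 128 features in all. The median log2 fold change was -0.0142 against -0.0055 over all features. ARHGEF2, an exchange factor that PAK kinases phosphorylate, had the smallest p, with 343 ± 21.1 CPM with empty vector and 285 ± 23.6 with VGF (log2 fold change -0.269, adjusted p = 0.259). For the difference between the VGF effects it was 0 of 88 by edgeR, with 13 at an unadjusted p under 0.05 (11.2% of all features). By DESeq2 it was 1, beside 280 features in all.

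**Figure D4:**
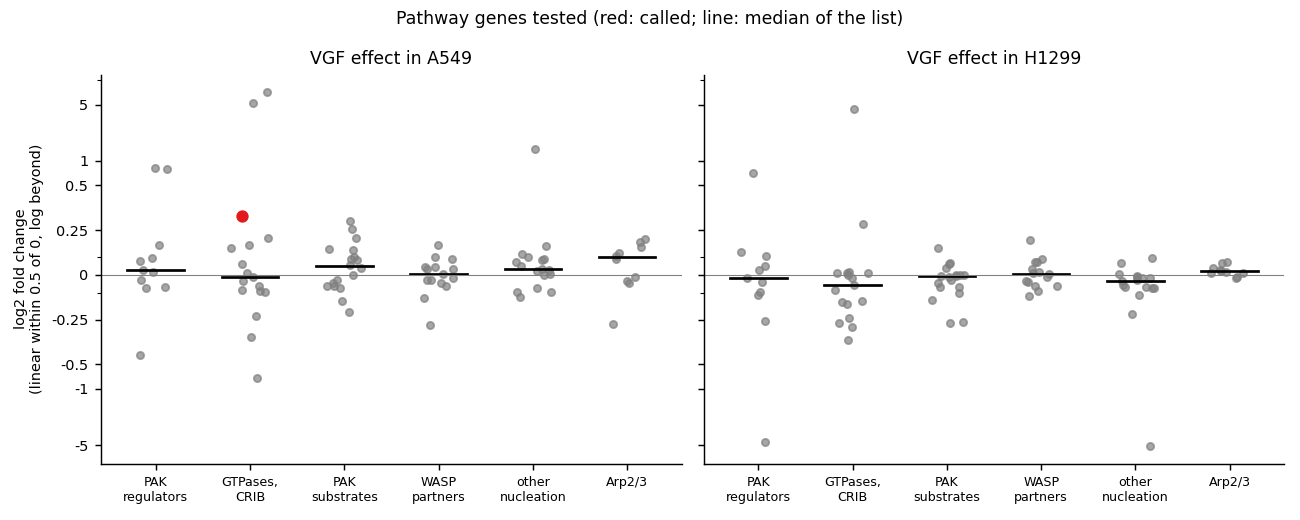
Log2 fold change of VGF against empty vector in A549 (left) and H1299 (right) for the 88 tested genes of the 6 lists (points; the vertical axis is linear within 0.5 of 0 and logarithmic beyond; horizontal lines are list medians). CDC42EP3 in A549, at 0.328, is the only gene marked as called.

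Between the lines with empty vector 71 of the 88 list genes passed, 32 higher and 39 lower in H1299, beside 77.2% of all features. Members of the same complex went in different directions. In the Arp2/3 list 6 genes were higher and 2 lower, among them the alternative subunits ARPC1A (log2 fold change 2.18, adjusted p = 3.47e-12) and ARPC1B (1.12, adjusted p = 3.43e-10), both higher in H1299. Their counts carry the uncertainty that 58.35% and 32.4% of their exonic bases also belong to the readthrough gene AC004922.1. Of the PAK substrates 4 were higher and 10 lower, with the actin-severing factor DSTN at -2.03 (adjusted p = 2.18e-12) and the adhesion adaptor PXN at 1.75 (adjusted p = 6.29e-12). Of the PAK regulators 4 were higher and 5 lower, with the PAK phosphatase PPM1E at 6.04 (adjusted p = 1.52e-10) and the scaffold GIT1 at -1.26 (adjusted p = 4.57e-10).

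Of the GTPases and CRIB effectors 4 were higher and 9 lower in H1299, with CDC42EP4 at -1.86 (adjusted p = 2.89e-11) and RHOQ at -1.70 (adjusted p = 1.05e-10). Of the other nucleation promoters 7 were higher and 8 lower, led by the WAVE complex subunits CYFIP2 at -3.79 (adjusted p = 6.44e-12) and WASF2 at 1.17 (adjusted p = 2.03e-10), and of the WASP partners 7 were higher and 5 lower, led by PACSIN2 at -1.24 (adjusted p = 3.99e-11) and BAIAP2L1 at 0.918 (adjusted p = 1.63e-09).

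CDC42, the GTPase that PAK kinases and WASP proteins read, could not be taken at face value. Its values were 117, 89.3 and 91.7 CPM in A549 with empty vector, 45.7, 123 and 65.4 with VGF, 150, 90.1 and 99.2 in H1299 with empty vector and 62.1, 101 and 119 with VGF. The coefficients of variation were 15.4% to 51.4%, against medians of 3.66% to 5.30% over the list genes. In the annotation 57.12% of the exonic bases of CDC42 are also exonic in AL031281.2 on the same strand, and the values of AL031281.2 were high where those of CDC42 were low. Their sum was 157.9 to 166.3 CPM in A549 with empty vector, 166.9 to 188.6 with VGF, 196.8 to 204.8 in H1299 with empty vector and 189.5 to 209.3 with VGF, with coefficients of variation of 2.29% to 7.06%.

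**Figure D5:**
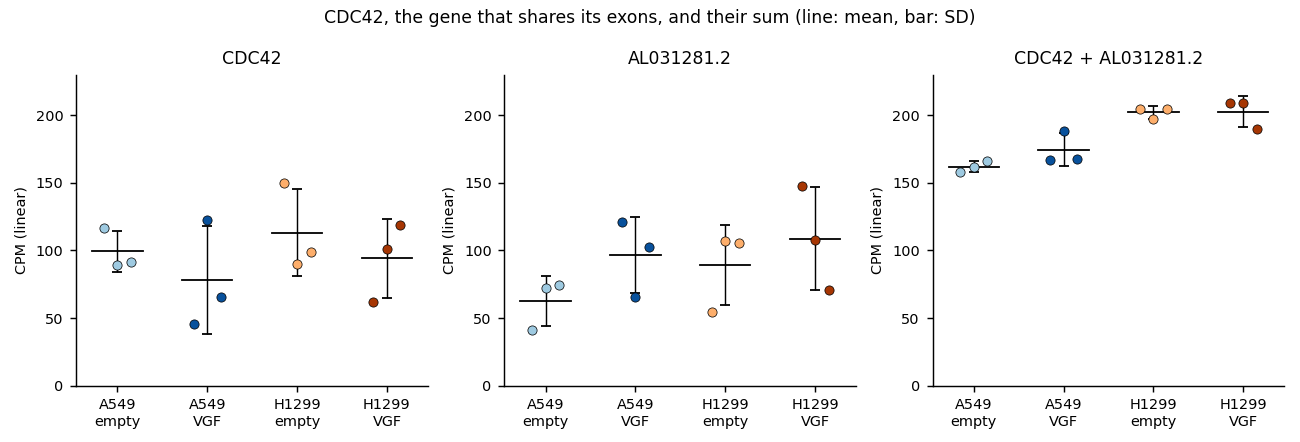
CPM (linear axis) of CDC42, of AL031281.2, which shares exonic bases with it, and of their sum in the 12 libraries; points are libraries, lines are means and bars are SDs of 3 libraries. CDC42 ranges from 45.7 to 150.0 CPM over the 12 libraries and the sum from 157.9 to 209.3 CPM.

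The genes whose level followed a member most closely across the 12 libraries were taken as a description, by Pearson's r of log2 CPM, for the 3 members with the largest VGF log2 fold change among those with at least 1 CPM in a group. The 12 libraries share lines and vectors, so a gene that differs between the lines reaches a high r by that alone. For PAK3 these were GLB1L3 (r = 0.992), HOXA11 (0.992) and CKB (0.990), and 506 genes had r over 0.95. For WIPF1 they were TNFAIP6 (0.997), TGFBR1 (0.996) and ADAM23 (0.996), and 3217 genes had r over 0.95. For WASL, which hardly differed between the lines, they were MFSD4A (0.907), DOC2A (0.884) and CLSTN1 (0.874), with 0 genes over 0.95.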

How the data were processed

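Messenger RNA of 12 libraries was read from the whole count table and the whole FPKM table. Raw counts per feature were deposited by the authors. FPKM values, which divide fragments by transcript length and library size, were deposited by the authors too. GRCh38 and DESeq2 appear in the submitters' processing notes; aligner, counter, annotation release and use of strand: not given in the sources used here. The tables held 26535 features (19974 with an Ensembl ID and 6561 without), and 18 stray lines of annotation text per table were left out. Coordinates are 1-based, from GENCODE release 29 on GRCh38, matched by Ensembl ID.

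Counts were tested in R 4.3.3 with edgeR 4.0.16 (quasi-likelihood F test, TMM scaling, filterByExpr by group with a minimum count of 10, Benjamini-Hochberg over 18228 features). The fit of all 12 libraries held 4 group means and no block, with 8 residual degrees of freedom. The SE given with edgeR's log2 fold changes was derived from the test. It is the absolute log2 fold change divided by the square root of the F statistic. The threshold for a call was an adjusted p under 0.05, and where no tool is named beside an adjusted p it is edgeR's. CPM are counts scaled to the library total times its TMM factor, which was 0.919 to 0.94 in A549 and 1.06 to 1.09 in H1299. Alternatives were upper-quartile scaling, no filter, the replicate number as a block, each line alone, DESeq2 1.42.0, limma 3.58.1 on log2(FPKM + 1) and log2(FPKM + 0.1), leaving out each library in turn, and relative log expression scaling, added after the data were seen. The scripts were tested on simulated counts. No 2 replicates agreed within sampling noise (chi-square over degrees of freedom 7.82 to 21.8 in 12 pairs).

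All 10 genes are named; of each list, called genes (up to 3 per direction), otherwise the gene with the smallest p, and at most 2 genes between the lines. Genes singled out beyond that (RAC2, RHOJ, HCLS1, ABI3, CDC42, PKHD1 and RLBP1) were chosen after their values were seen. The members and lists were chosen with earlier results of these data known.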

Additional observations from a re-analysis of the deposited data

Results flagged for a closer look

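The effect of VGF differed between the lines for WIPF1 and PAK3, which were past the threshold of edgeR's interaction test (adjusted p under 0.05). The genes were chosen on the 2 VGF effects that this test compares, so it is no independent evidence, and with the replicate number as a block neither passed (adjusted p = 0.0600 for each, edgeR). For WIPF1 the effect in H1299 minus that in A549 was -0.62 on the log2 scale: 55.5 ± 1.10 to 77.0 ± 2.48 CPM in A549 and 17.8 ± 0.891 to 16.1 ± 1.07 CPM in H1299 (n = 3 libraries each). For PAK3 the fitted difference was 6.71. That value depends on the prior count, because the 3 A549 libraries with VGF had 0 counts, and rests on 37 counts in the A549 libraries with empty vector.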

How the results depend on the processing

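Of 144 features called for VGF in A549, the count was 247 (91 higher and 156 lower) in FPKM without a filter and 710 (423 and 287) by DESeq2, against 74 and 70 in the main test, and 52 to 130 with 1 library left out. The 2 members past the threshold there, on whose VGF effect they were chosen, were 1 (WIPF1) with A549 fitted alone and in the 3 FPKM fits. The 1 pathway gene was 0 with the line alone and in FPKM with a pseudocount of 0.1, 2 with relative log expression scaling and in FPKM without a filter, 8 by DESeq2 and 0 to 1 with 1 library left out. In H1299 the 2 features called were 5 without a filter, 4 with the line alone and in FPKM with a pseudocount of 1 (with and without a filter), 128 by DESeq2 and 1 to 4 with 1 library left out, and the pathway count of 0 was 1 by DESeq2. For the difference of VGF effects the 29 features were 280 by DESeq2 and 18 to 36 with 1 library left out, the 2 members were 1 in the 3 FPKM fits, and the pathway count of 0 was 1 by DESeq2. The PAK3 difference of 6.71 was -0.065 in FPKM with a pseudocount of 1, with and without a filter, where PAK3 in A549 is far below the pseudocount. The WASL difference between the lines with empty vector, -0.003, was 0.104 with upper-quartile scaling, 0.005 without a filter, 0.186, 0.197 and 0.186 in the FPKM fits, and -0.022 to 0.037 with 1 library left out (0.008, 0.010, 0.037 and 0.000 without A549 library 2 with empty vector, A549 library 2 with VGF, H1299 library 1 with empty vector or H1299 library 3 with VGF). With VGF it was 0.030, 0.032 and 0.030 in FPKM instead of -0.172. Upper-quartile scaling moved the median of all features between the lines by 0.106 with empty vector and 0.122 with VGF, FPKM with a pseudocount of 1 by 0.192 and 0.197. The cause of the other shifts was not tested. The counts of features called between the lines stayed within 1.5 times of the main counts under every setting run. PAK3 in A549, PAK6, WIPF3 and WAS rest on at most 59 counts per library, so that depth limits what they can show.

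Replicate numbers do not pair the libraries: same-numbered libraries had deviations correlated between -0.0798 and 0.016 over 6 pairs, and 1 of the 6 empty vector libraries correlated best with its own number. With the replicate number as a block the counts called were 43 features (19 higher and 24 lower) and 0 pathway genes for VGF in A549, 1 feature for VGF in H1299, and 2 features and 0 members for the difference of VGF effects.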
